A study of Mus musculus with 8 samples.

Results

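The genes described here are 7 germ-cell genes that encode RNA helicases and RNA-binding proteins: *Ddx4*, *Dazl*, *Boll*, *Nanos2*, *Adad1*, *D1Pas1* and *Ddx25*. They were taken by name, with earlier results of these data known. Every probe outside the controls whose RefSeq accession belongs to one of them was used. This gave 8 probes for 7 of the 19751 genes that could be named on the array. Germ cells store and translate many mRNAs long after these have been transcribed, and proteins of this kind bind, unwind, store or silence such mRNAs. DEAD-box helicases use ATP to remodel RNA and RNA-protein complexes. DAZ family proteins bind sequences in the 3′ ends of mRNAs and promote their translation, whereas NANOS proteins bring mRNAs to the deadenylase complex that shortens their tails.

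Expression was measured in VV3 ESCs, a male mouse embryonic stem cell line with a fluorescent reporter of *Ddx4* (also called *Vasa*), which grows in serum and LIF on mitotically inactivated STO feeder cells. One group of 4 samples received siRNA against *L3mbtl2*, a subunit of a Polycomb repressive complex (*L3mbtl2*-KD), and the other group of 4 samples received AllStars siRNA, which has no target (control). From the methods, *L3mbtl2*-KD cells positive for the reporter were purified by FACS, and for the arrays it is not stated whether control cells were sorted as well. *Ddx4* is the gene whose reporter was used for that selection, so its level cannot be told apart from the sort. Unless control cells were sorted for the reporter in the same way, the sort and the siRNA cannot be told apart for any other gene either. Each sample is described as a biological replicate and had its own one-colour Agilent array, on which 43020 spots were not controls. On the arrays of control ESCs the 75th percentile of the intensities lay between 854 and 1024, and on the others between 791 and 1038. Between 62.0 and 66.6% of spots were well above background on control arrays, and between 59.5 and 63.9% on *L3mbtl2*-KD arrays. Values below are normalized log2 intensities, in which 0 is the 75th percentile of the array. Levels of different probes cannot be compared with each other, so "brightest" below describes the signal of a probe and not the amount of RNA.

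The siRNA target was checked first. *L3mbtl2* went from -0.11 ± 0.26 in control ESCs to -1.50 ± 0.20 after its knockdown (mean and SD of 4 arrays), a fall of 1.40 on the log2 scale (adjusted p = 0.00094 in limma). The ESC markers were present: all 10 that were listed were well above background and tested, and none was called in either direction. Their summed level, in multiples of the 75th percentile and with *Dppa5a* the brightest, was between 302 and 324 on control arrays and between 296 and 333 on *L3mbtl2*-KD arrays. Not every marker was level, since *Klf4* had a log2 fold change of -0.70 (limma adjusted p = 0.027) and *Nanog* one of -1.32 (limma adjusted p = 0.096). The size for *Nanog* rests in part on control replicate 2, which was at -1.38 against a mean of -2.83 over the other controls.

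Among the panel genes, *Ddx4*, *Dazl*, *Boll* and *Adad1* were up-regulated in *L3mbtl2*-KD ESCs, by more than 2-fold at a limma adjusted p under 0.05. *D1Pas1* and *Ddx25* were tested and not called, and *Nanos2* was too dim to be tested. The 4 genes compare with 340 up-regulated genes among the 13652 tested on the whole array, or 2.49%, and none of the panel was among the 438 down-regulated genes, or 3.21%. The panel was chosen with earlier results known, and *Ddx4* is the gene of the sort. These shares are therefore background, and the count is not a test of the panel. *Adad1* was tested through the *L3mbtl2*-KD group alone, as it was not well above background in control ESCs. For *Ddx4*, *Dazl*, *Boll* and *Ddx25* all *L3mbtl2*-KD values lay above all control values, which held for 1717 of the 13647 genes whose standing probe was tested. The counts depend on processing: normexp background correction gave 194 genes up and 159 down and did not call *Adad1*, and quantile normalization gave 398 up and 355 down.

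**Figure D1:**
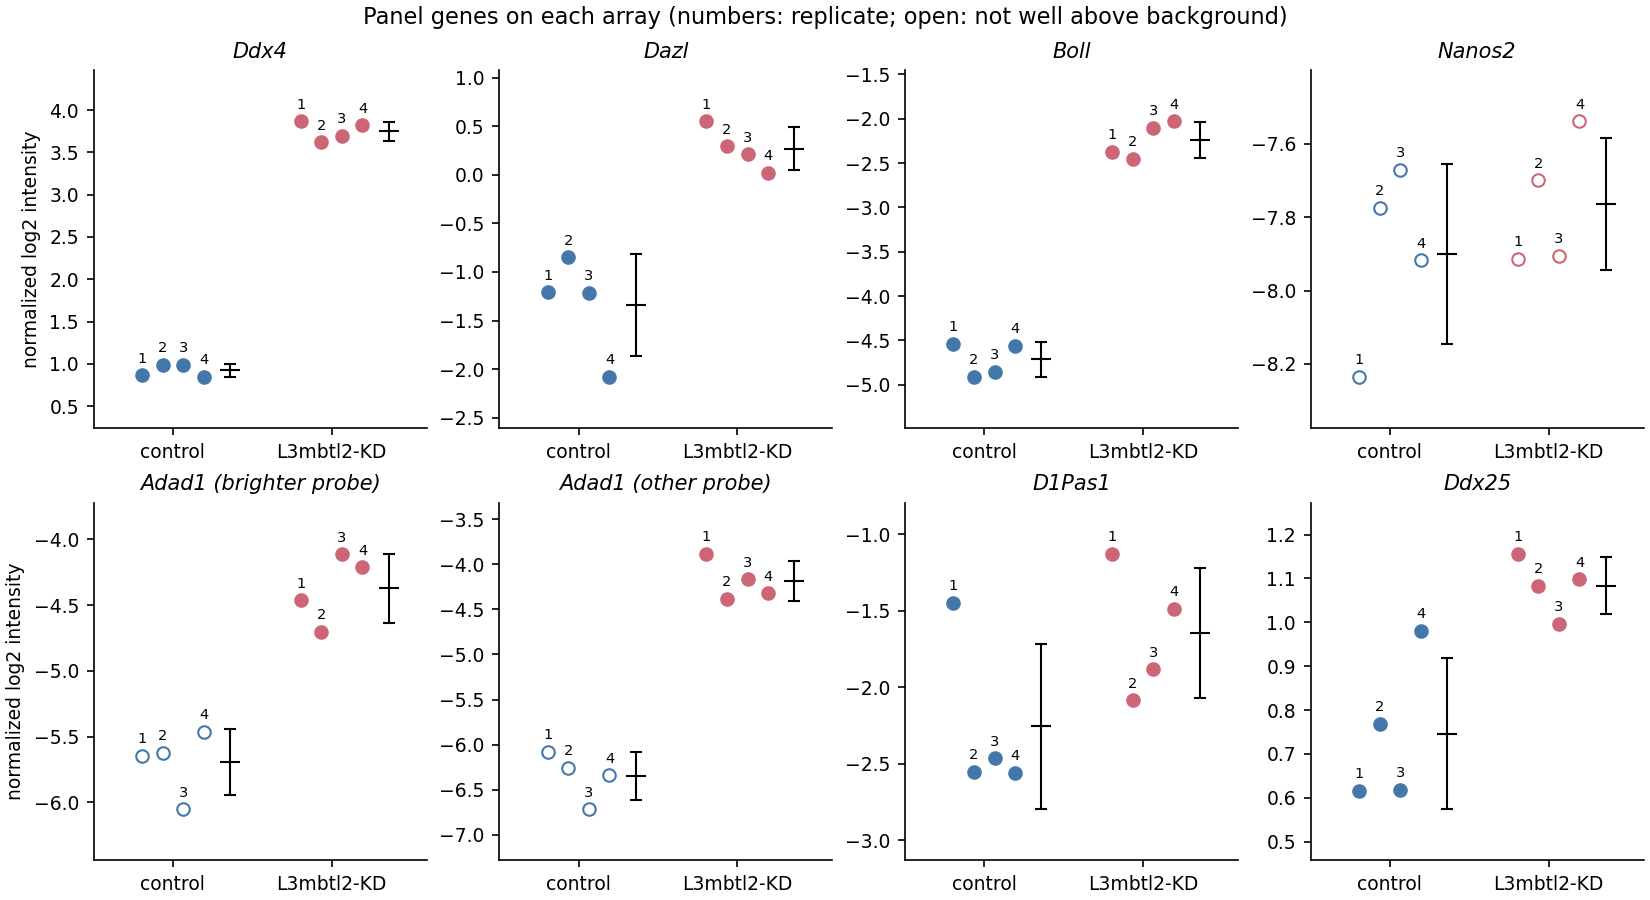
Normalized log2 intensity (vertical axis, a separate scale in each panel) of every probe of the 7 genes on the 4 control and 4 *L3mbtl2*-KD arrays. Points are arrays with their replicate numbers, open points belong to groups in which no array was well above background, and bars give the mean and SD of 4 arrays. The groups are apart for *Ddx4*, *Dazl*, *Boll* and *Adad1*, almost touch for *Ddx25* and overlap for *D1Pas1* and *Nanos2*.

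The bases before the start are shown for 3 of the up-regulated genes. The RefSeq promoter table (GRCm38.p6) held 6 of the 7 panel genes, without *Adad1*, and *Boll* had 2 starts in it. Each line gives 250 bases on the strand of the gene, 5′ to 3′, that end just before the start. Capitals mark the E-box CACGTG, which MAX-containing dimers are known to bind, and the E2F site GGCGGGAA, whose last 7 letters GCGGGAA were also searched on their own. All motifs were searched on both strands. The *Ddx4* sequence is chr13:112652311-112652560 (minus strand), that of the first *Boll* start is chr1:55363754-55364003 (minus strand), and that of *Dazl* is chr17:50293621-50293870 (minus strand).
*Ddx4*: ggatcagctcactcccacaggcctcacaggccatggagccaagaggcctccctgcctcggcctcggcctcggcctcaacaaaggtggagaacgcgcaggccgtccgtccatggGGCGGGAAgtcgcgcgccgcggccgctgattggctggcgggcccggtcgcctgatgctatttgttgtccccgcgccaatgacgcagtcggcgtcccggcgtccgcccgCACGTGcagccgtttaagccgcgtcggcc
*Boll*: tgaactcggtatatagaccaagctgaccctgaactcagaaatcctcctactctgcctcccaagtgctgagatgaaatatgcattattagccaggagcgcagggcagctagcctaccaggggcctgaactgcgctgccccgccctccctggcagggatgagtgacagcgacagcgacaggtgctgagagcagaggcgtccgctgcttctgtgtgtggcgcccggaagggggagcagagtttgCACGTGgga
*Dazl*: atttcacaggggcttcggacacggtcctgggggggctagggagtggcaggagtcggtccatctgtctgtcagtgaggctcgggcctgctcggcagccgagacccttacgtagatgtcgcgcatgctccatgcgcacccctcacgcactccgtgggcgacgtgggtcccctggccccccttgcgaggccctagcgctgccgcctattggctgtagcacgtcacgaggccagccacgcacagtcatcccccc

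In this window *Ddx4* held 1 E-box, which began 29 bases before the start, and 1 E2F site, which began 137 bases before it. *Boll* held 1 E-box, 9 bases before its first start, and no listed motif before its second. The windows of *Dazl*, *Nanos2*, *D1Pas1* and *Ddx25* held none of the motifs, and no window of the panel held the T-box site AGGTGTGA. Of the 32851 promoters in the table, 6.02% held the E-box, 1.86% the E2F site, 3.82% its core and 1.12% the T-box site. The panel also differed in CpG content. *Ddx25* had 34 CpG dinucleotides in its window, the second start of *Boll* had 33, *Ddx4* had 31 and *Dazl* had 20, against a median of 6 over all promoters. *Boll* at its first start and *D1Pas1* had 11 each, and *Nanos2* had 0. The highest count was thus that of *Ddx25*, which was not called but was near the threshold of the adjusted p (0.051 in limma). Any link between CpG content and the calls was not tested. These matches describe letters only, and binding was not measured here.

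**Figure D2:**
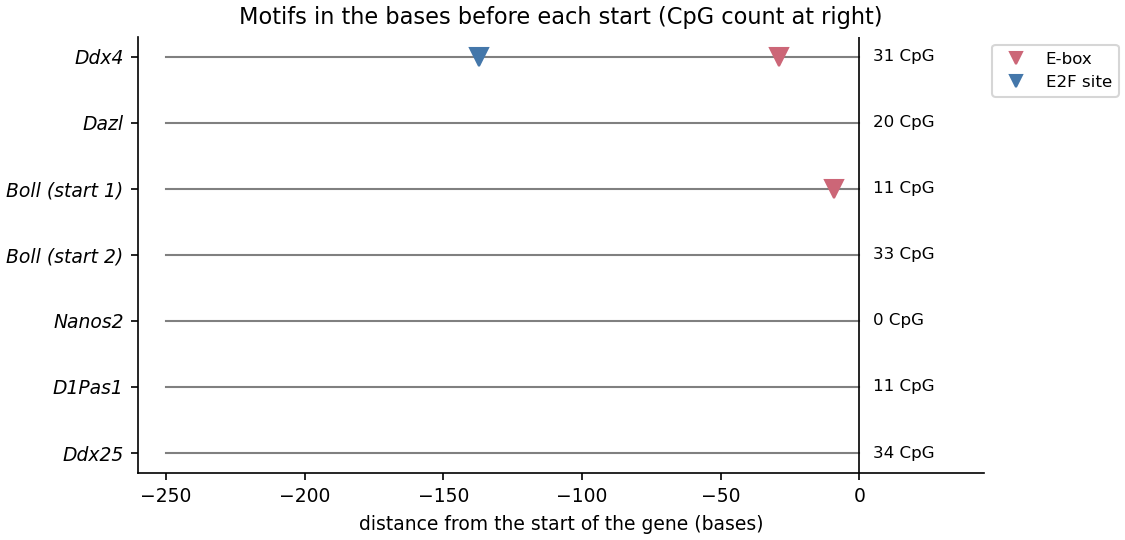
Position of the E-box and of the E2F site in the 250 bases before each start of the 6 panel genes in the promoter table (horizontal axis, distance from the start in bases), with the number of CpG dinucleotides at the right. Motifs were found before *Ddx4* and before the first start of *Boll*.

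*Ddx4* encodes the VASA helicase, a component of germ granules that marks germ cells from the late primordial germ cell stage. Its level was 0.86, 0.99, 0.99 and 0.85 in control replicates 1 to 4 and 3.87, 3.62, 3.70 and 3.82 in *L3mbtl2*-KD replicates 1 to 4. The groups were 2.63 apart at their nearest values, and the arrays within each group were close to one another. *Ddx4* was thus 7.11-fold higher in the *L3mbtl2*-KD group, with a log2 fold change of 2.83 ± 0.087 (standard error; limma adjusted p = 4.9e-06). That group was selected by the reporter of this gene, so the size and the p-value do not test the siRNA. Among the 13647 genes ranked by the fold change of their standing probe, *Ddx4* was at place 34 from the top. It was well above background in every control sample, so it was measurable in the absence of the knockdown.

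*Dazl* and *Boll* are the DAZ family genes of the panel. *Dazl* is expressed in germ cells of both sexes from the time they settle in the gonad, and *Boll* mainly in meiotic and later male germ cells. *Dazl* was at -1.21, -0.85, -1.21 and -2.08 in control replicates 1 to 4 and at 0.55, 0.29, 0.21 and 0.02 in *L3mbtl2*-KD replicates 1 to 4. Control replicate 4 was the lowest by far, and the control group was the more spread of the 2 (SD 0.52 against 0.22). The groups did not overlap, and *Dazl* was 3.04-fold higher in *L3mbtl2*-KD ESCs (log2 fold change 1.61, standard error 0.25, adjusted p = 0.0039 in limma). Without control replicate 4 the log2 fold change was 1.36, which is the lowest value with any single array left out.

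*Boll* was close to the detection limit in control ESCs. It was at -4.54, -4.91, -4.85 and -4.56 in control replicates 1 to 4 and at -2.37, -2.45, -2.10 and -2.03 in *L3mbtl2*-KD replicates 1 to 4. All control samples were still well above background, at an intensity of 28.4 to 40.4, where the lowest intensity of any probe well above background was 14.0 to 24.2 on the control arrays. This is a 5.56-fold rise, with a log2 fold change of 2.47 ± 0.14 (standard error; limma adjusted p = 5.1e-05). After normexp background correction of the median intensities with an offset of 50 it was 1.33, and the call was kept. Which of these steps moved it was not tested.

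*Adad1* encodes a testis protein with a double-stranded RNA-binding domain and an adenosine deaminase domain that is held to lack editing activity. It was the only panel gene with several probes. The brighter was at -5.64, -5.62, -6.05 and -5.46 in control replicates 1 to 4 and at -4.46, -4.70, -4.11 and -4.21 in *L3mbtl2*-KD replicates 1 to 4. The other probe was between -6.71 and -6.08 in control ESCs and between -4.38 and -3.88 in *L3mbtl2*-KD ESCs. All 4 *L3mbtl2*-KD arrays had both probes well above background and 0 of the 4 control arrays had either, so that only approximate bounds can be given. The bound for the rise of *Adad1* was 2.19-fold by the brighter probe and 2.71-fold by the other. The limma adjusted p-values behind its call, 0.0017 and 0.00019, rest on control signals below background and do not test these bounds. Each bound compares the mean of the *L3mbtl2*-KD arrays with a control mean. In that mean every control array was given the lowest signal of any probe well above background, unless the probe itself was brighter there. In control replicates 1 and 4 the brighter probe exceeded that signal (-5.64 against -5.96, and -5.46 against -5.64) without being well above background. The limit thus differs between probes, and the bounds are not strict. With normexp background correction the fitted log2 fold change of the brighter probe was 0.49, under 2-fold and below its bound, and the call was lost.

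*D1Pas1* and *Ddx25* are DEAD-box helicases of male germ cells. *D1Pas1* is an intronless autosomal relative of *Ddx3x* and *Ddx3y*, and *Ddx25* encodes a helicase needed to complete spermatid development. *D1Pas1* was at -1.45, -2.55, -2.46 and -2.56 in control replicates 1 to 4 and at -1.13, -2.08, -1.88 and -1.49 in *L3mbtl2*-KD replicates 1 to 4. Control replicate 1 stood apart from the other controls and lay above each *L3mbtl2*-KD sample but that of replicate 1, the highest of its group. The log2 fold change of 0.61 had an adjusted p of 0.19 in limma (95% interval -0.06 to 1.29; two-sided exact permutation test, p = 0.143). This interval holds both no change and a change of more than 2-fold. Between samples with the same replicate number, the differences were 0.32, 0.47, 0.58 and 1.07, and with the replicate number as a block the adjusted p was 0.021 in limma at the same log2 fold change. Without control replicate 1 the log2 fold change was 0.88 (adjusted p = 0.032 in limma). As *D1Pas1* resembles its relatives in sequence, how far its probe separates them was not tested.

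*Ddx25* was at 0.62, 0.77, 0.62 and 0.98 in control replicates 1 to 4 and at 1.16, 1.08, 0.997 and 1.10 in *L3mbtl2*-KD replicates 1 to 4. The groups did not overlap, but the highest control value and the lowest *L3mbtl2*-KD value were only 0.017 apart. The log2 fold change was 0.34 (95% interval 0.11 to 0.57, adjusted p = 0.051 in limma), or 1.26-fold. The interval, which is not adjusted for the number of probes, lies below 2-fold throughout. On each of the 8 arrays *Ddx25* was clearly detected.

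*Nanos2* encodes an RNA-binding protein that promotes the male fate of fetal germ cells. Its single probe was well above background on none of the 8 arrays, with intensities of 2.89 to 5.03 on control arrays and from 3.45 upward, never above 5.03, on *L3mbtl2*-KD arrays. No fold change is given for it, and a change below the detection limit would not be seen.

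**Figure D3:**
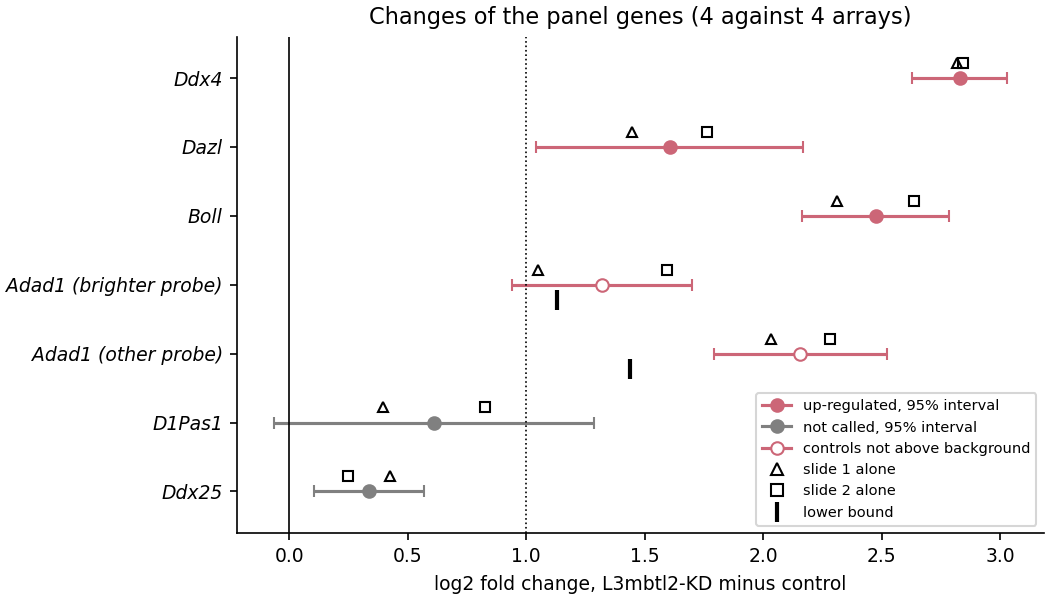
Log2 fold change (horizontal axis, *L3mbtl2*-KD minus control) of each tested probe of the panel, with its 95% interval from limma over 4 against 4 arrays. Triangles and squares give the change within each slide alone, vertical ticks the approximate bound for *Adad1*, and the dotted line marks 2-fold. *Ddx4* and *Boll* lie farthest to the right at 2.83 and 2.47, and the interval of *D1Pas1* reaches from -0.06 to 1.29.

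For *Ddx4*, *Dazl*, *Boll* and *Ddx25* the two-sided exact permutation test gave p = 0.0286, the smallest that free relabeling of 4 against 4 samples allows. For *Ddx4* this does not separate the siRNA from the sort by its reporter. These relabelings ignore the pairing of samples by replicate number, and exact swaps within the 4 pairs allow no p below 0.125. The arrays lay on 2 slides, each with 2 samples of both groups. On the first slide alone, log2 fold changes were 2.82 for *Ddx4*, 1.45 for *Dazl*, 2.31 for *Boll*, 0.39 for *D1Pas1* and 0.43 for *Ddx25*. Within the second slide they were 2.84, 1.76, 2.64, 0.83 and 0.25 in the same order. In limma on the first slide alone, the adjusted p was 0.051 for *Ddx4*, 0.089 for *Dazl* and 0.061 for *Boll*. On the second slide, with as many samples, limma gave adjusted p-values of 0.0039, 0.043 and 0.0043 in the same order, and why the slides differ was not tested. Control samples always lay at other positions of the slide than *L3mbtl2*-KD samples, so the position and the siRNA cannot be told apart.

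The panel was then set beside related genes. Of 36 DEAD-box helicase genes outside the panel, 33 were on the array, and all 33 were tested. Their median log2 fold change was 0.16, against -0.01 over all genes tested, and 25 had a positive value, as had 6605 of the 13647 genes ranked. In limma without the pairing by replicate number, an adjusted p under 0.05 was reached by 10 of the helicases and by 2745 of the 13647 genes. The up-regulated genes were *Ddx19b* and *Ddx19a*, the closest relatives of *Ddx25*, whose products act in the export of mRNA through the nuclear pore. *Ddx19b* was 4.25-fold higher, at 3.44 ± 0.22 against 1.35 ± 0.09 (mean and SD of 4 arrays; log2 fold change 2.09, limma adjusted p = 6.0e-05). *Ddx19a* rose by the brighter of its probes, from -0.44 ± 0.12 to 0.82 ± 0.22 (SD, n = 4 each; log2 fold change 1.26, adjusted p = 0.00058 in limma). The other *Ddx19a* probe had a log2 fold change of -0.17 (adjusted p = 0.63 in limma), so the probes of this gene disagree. This other probe was at -0.49 in control replicate 2 and between -1.48 and -1.29 in the other controls. Its log2 fold change ranged from -0.27 to 0.06 with single arrays left out, so its sign depends on 1 array. These genes are neighbours on the chromosome and similar in sequence, and whether the brighter *Ddx19a* probe also detects *Ddx19b* RNA was not tested. The genes on either side of the pair were *St3gal2* (log2 fold change 0.13) and *Aars* (0.12), with adjusted p-values of 0.25 and 0.45 in limma.

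Other helicases moved little. The brightest, the translation initiation factor *Eif4a1*, had a log2 fold change of 0.47 (adjusted p = 0.021 in limma). *Ddx20*, a partner of the SMN protein, was at 0.51 (adjusted p = 0.023 in limma), and *Ddx56*, a nucleolar helicase, at 0.45 (adjusted p = 0.012 in limma). *Ddx10*, *Ddx24*, *Ddx28*, *Ddx31* and *Ddx49* also had an adjusted p under 0.05 in limma, with log2 fold changes from 0.28 to 0.41, all under 2-fold. The relatives of *D1Pas1* gave 0.23 for *Ddx3x* and -0.22 for *Ddx3y* (adjusted p = 0.18 each in limma), and neither was called. The other *Ddx3x* probe gave 0.35 (adjusted p = 0.017 in limma), under 2-fold. With the replicate number as a block, the limma adjusted p was 0.023 for *Ddx3x* and 0.016 for *Ddx3y*, at the same log2 fold changes.

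Of 16 other germ-cell RNA-binding protein genes, all were on the array and 13 were tested, with a median log2 fold change of 0.15. *Cpeb1*, which controls the length of poly(A) tails of stored mRNAs, rose from -1.16 ± 0.09 to 0.40 ± 0.19 (SD, n = 4 each; log2 fold change 1.56, adjusted p = 0.00016 in limma). *Meioc*, a partner of YTHDC2 in meiotic prophase, rose from -0.64 ± 0.18 to 0.93 ± 0.12 (SD, n = 4 each; log2 fold change 1.57, adjusted p = 0.00017 in limma). A second *Meioc* probe had 1.22 with a limma adjusted p of 0.077. This second probe was at -2.48 in control replicate 2 and between -4.73 and -4.09 in the other controls. Its log2 fold change ranged from 0.93 to 1.68 with single arrays left out. *Ythdc2* itself was at 0.07 (adjusted p = 0.72 in limma). *Rbm44*, a gene of intercellular bridges in the testis, fell by 1.01 on the log2 scale (adjusted p = 0.0091 in limma), close to the 2-fold threshold, and without control replicate 1 its log2 fold change was -0.87. *Pabpc1l*, a poly(A)-binding protein gene of oocytes, had -0.81 (adjusted p = 0.0054 in limma), which is under 2-fold. *Rbm46* could be detected in 2 *L3mbtl2*-KD samples and in no control sample, and it was not tested. The relatives of *Nanos2* were both detected, *Nanos1* with a log2 fold change of 0.13 and *Nanos3* with 0.37 (adjusted p = 0.24 and 0.065 in limma). With the replicate number as a block, their limma adjusted p-values were 0.092 and 0.0054 at the same log2 fold changes, under 2-fold. *Tarbp2* was the brightest gene of this list and had 0.19 (adjusted p = 0.28 in limma).

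The listed partners of DAZ and NANOS proteins, such as the PUM proteins, poly(A)-binding protein and subunits of the CCR4-NOT deadenylase, were tested for all 16 genes. None was called in limma, and none had an adjusted p under 0.05. Their median log2 fold change was 0.00, within a range of -0.13 to 0.36, and *Pabpc1*, the brightest, was at 0.01. Of the 4 genes of the adenosine deaminase domain family outside the panel, 3 were tested and none was called. *Adad2*, the closest relative of *Adad1*, had a log2 fold change of 0.05 (adjusted p = 0.86 in limma), *Adar* 0.28 (adjusted p = 0.097 in limma) and *Adarb1* 0.46 (adjusted p = 0.039 in limma). The other late PGC markers of the study differed from each other, with *Stra8* up-regulated (log2 fold change 1.34, adjusted p = 0.0032 in limma) and *Sycp3* at -0.11 (adjusted p = 0.63 in limma).

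**Figure D4:**
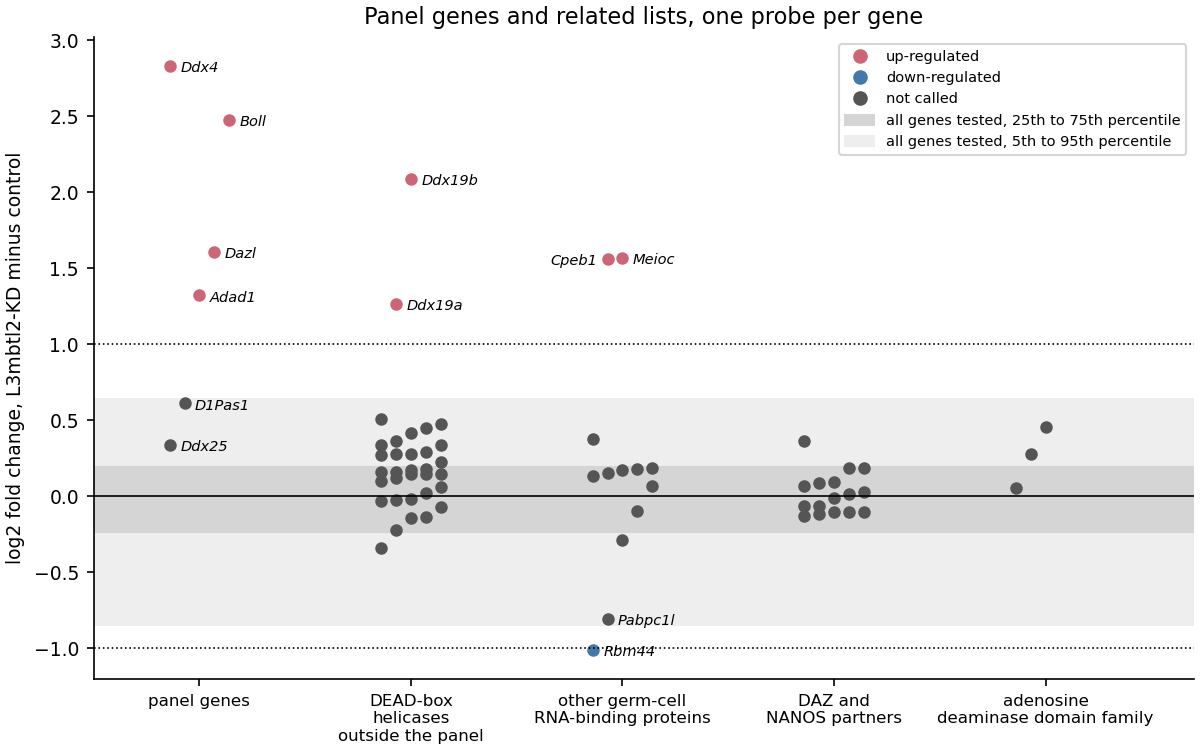
Log2 fold change (vertical axis, *L3mbtl2*-KD minus control, 1 probe per gene) of the tested genes of the panel and of 4 related lists. Grey bands give the spread of all genes tested, and dotted lines mark 2-fold. Most helicases and all DAZ and NANOS partners lie between the dotted lines, outside which are *Ddx19a*, *Ddx19b*, *Cpeb1*, *Meioc*, *Rbm44* and the panel genes called.

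By RefSeq order, 14 protein-coding genes lie next to a panel gene. Of these, 9 were tested by their standing probe, and none of the 9 was called in limma. Most genes on the array were not called either, as 2.49% of those tested were up-regulated and 3.21% down-regulated. Beside *Ddx4*, *Slc38a9* had a log2 fold change of 0.34 (adjusted p = 0.11), beside *Boll*, *Mars2* had 0.30 (adjusted p = 0.13), and beside *Dazl*, *Rftn1* had 0.03 (adjusted p = 0.90) and *Plcl2* 0.31 (adjusted p = 0.24), all in limma. Negative values were found for *4932438A13Rik* beside *Adad1* (-0.09, limma adjusted p = 0.65) and *Pus3* beside *Ddx25* (-0.32, limma adjusted p = 0.17). The remaining ones, *Nova2* and *Mypop* beside *Nanos2* and *Rrp15* beside *D1Pas1*, had 0.07, 0.35 and 0.05.

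The genes with profiles nearest to those of the panel were found over the 8 arrays, after the control mean of each gene had been subtracted, among 13597 named genes outside the panel. The measure is the root mean square difference in log2 units. For *Ddx4* they were *Slx* (0.17) and *Dpep3* (0.21), for *Dazl* *Myrip* (0.19) and *Olfr871* (0.20), and for *Boll* *Map3k15* and *Plekhg4* (0.13 each). In control ESCs *Myrip* was well above background on 0 arrays and *Dpep3* and *Olfr871* on 2 each, so that their distances rest in part on background signal. None is given for *Adad1*, for the same reason. *Enox1* (0.10) and *Slc35f3* (0.14) were nearest to *D1Pas1*, and *Zfp658* and *Srsf7* (0.06 each) to *Ddx25*.

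Markers of other cell types also differed between the groups. Of 14 feeder fibroblast markers, 10 were tested, 6 were down-regulated and *Loxl1* was up-regulated (1.01, but 0.88 and not called by its other probe), with a median log2 fold change of -1.90. *Col1a2* fell by 2.81, *Acta2* fell by 2.72 and *Col1a1* fell by 2.22 on the log2 scale. By the kind of bound used for *Adad1*, *Dcn* was 12.1-fold and *Col3a1* 7.81-fold lower, as they were not well above background on any *L3mbtl2*-KD array. *Col5a2*, *Lum*, *Postn* and *Fap* were well above background on no array. The summed level of the list was 5.95, 13.1, 11.8 and 14.7 in control replicates 1 to 4 and between 5.51 and 6.26 in *L3mbtl2*-KD ESCs, with *Tagln* the brightest.

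Of 10 primitive endoderm markers, all were tested and 7 were down-regulated. The median of the fitted log2 fold changes was -1.77, but it rests in part on *Foxa2*, which was well above background on no *L3mbtl2*-KD array, so it is not a measured size. The genes called included *Cubn* (-3.20), *Lama1* (-2.18) and *Foxa2* (2.45-fold lower by the same kind of bound). *Dab2* and *Sox17* were also called, but no size is given for them, as they were well above background on only 1 and 3 of the *L3mbtl2*-KD arrays. Their summed level, led by *Lama1*, was between 14.0 and 18.8 in control ESCs and between 3.34 and 5.85 in *L3mbtl2*-KD ESCs. Of the 9 two-cell-like markers on the array, 8 were up-regulated, with a median of 1.82, among them *Usp17la* (2.53), *Zscan4c* (2.18), *Tcstv1* (2.12) and *Zscan4f* (2.05). Probes disagreed for *Usp17la*, where another gave 0.28 (adjusted p = 0.33 in limma), and for *Sp110*, where the brightest gave -0.02 and another 2.42. The summed level of that list, led by *Sp110*, was between 88.1 and 136 in control ESCs and between 122 and 191 in *L3mbtl2*-KD ESCs. Of 8 trophectoderm markers, 7 were tested and none was called (median -0.38). Their summed level, led by *Krt18*, was between 3.78 and 5.24 in control ESCs and between 2.75 and 4.88 in *L3mbtl2*-KD ESCs, and *Elf5* was not well above background. Of 10 gonadal somatic cell markers, 7 were tested, and *Sox9* was 2.16-fold lower by the same kind of bound while none was up-regulated. The summed level of that list, led by *Foxl2*, was between 14.45 and 18.01 in control ESCs and between 14.2 and 18.4 in *L3mbtl2*-KD ESCs, and *Amh* was not well above background. In these bulk samples a change in the share of cells and a change in RNA per cell cannot be told apart, and the part of these other cell types in the changes of the panel was not tested. The sort of reporter-positive *L3mbtl2*-KD cells also goes with the groups, as sorting of control cells is not stated, and its part in the marker levels was not tested.

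**Figure D5:**
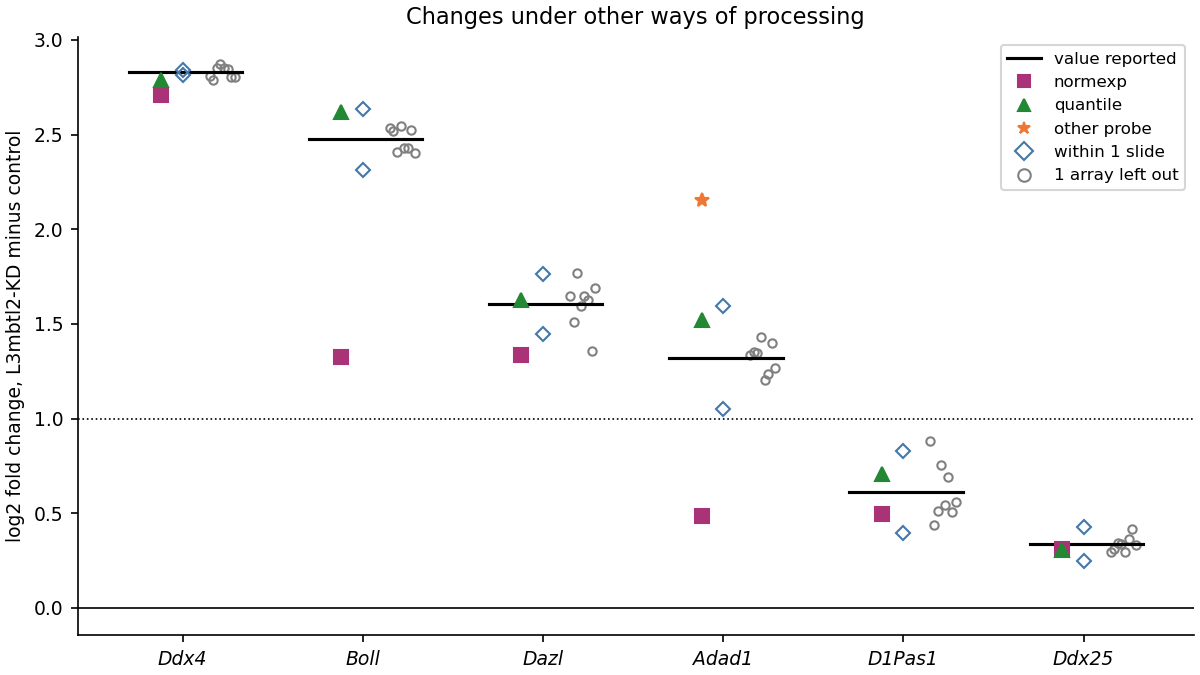
Log2 fold change (vertical axis, *L3mbtl2*-KD minus control) of the 6 tested panel genes under other ways of processing. Black lines give the values reported, and symbols give normexp background correction, quantile normalization, the other *Adad1* probe, each slide alone and each array left out. With normexp *Boll* was at 1.33. The values shown for *Adad1* are fitted to control signals below background, so that their size is not a measured change.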

How the data were processed

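The authors deposited background-subtracted intensity values of every spot, per the file headers from Feature Extraction 10.7.3.1, and a table of log2 values with a 75 percentile shift. Here, log2 intensity minus the 75th percentile of the array was used. Spots of a probe were averaged after removal of controls and of spots that the scanner software had marked as outliers. Of 39429 probes, 26055 were named by RefSeq accession. Testing was done for 23518 probes that were well above background in all samples of control ESCs, of *L3mbtl2*-KD ESCs or of both, 78 of which had a missing value. Counting the marked spots in that filter gave 23525 probes. This alternative was added after seeing the data, because an earlier count for these data differed, and the calls did not change in number (340 and 438 genes).

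Groups were compared with limma 3.58.1 in R 4.3.3 (lmFit, eBayes, Benjamini-Hochberg adjustment over all probes tested). The fit was also run on simulated data, and no result of that run is used here. Genes count as up- or down-regulated if any of their probes passed both 2-fold and an adjusted p of 0.05. The probe with the highest mean signal stands for a gene. The replicate numbers were taken to pair the samples, as inferred from the values: deviations from the group means correlated at 0.38 to 0.58 between samples with the same number and at -0.44 to 0.25 between others. As deviations within a group cancel out, these ranges are not independent. Samples with the same number also lay side by side on a slide, so their shared place and a pairing of the samples cannot be told apart. The members and lists were chosen with earlier results of these data known. Named genes are the panel, its closest relatives, the siRNA target, the late PGC markers, called or brightest genes of each list and the 2 nearest profiles. Outside this rule, the neighbouring genes, helicases with small changes, *Klf4*, *Nanog*, *Ythdc2*, *Pabpc1l*, *Adarb1* and *Rbm46* were named after their values were seen.

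Alternatives were the deposited log2 table, quantile normalization, normexp background correction (offset 50), an intensity trend, a block by slide or by replicate number, all probes with dim ones kept, only probes detected in all 8 samples, the one-way test of the study, a threshold of 1.5-fold, other probes, each slide alone and leaving out each array. Normexp was planned on mean intensities and used the deposited median intensities.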

Additional observations from a re-analysis of the deposited data

Results flagged for a closer look

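In 14 of 267 groups of 4 samples, over the panel and the listed genes, 1 sample was far off by the ratio of Dixon; chance alone gives about 1 in 20, or 13.35. In the panel this was *D1Pas1* in control ESCs (ratio 0.914), with -1.45 in replicate 1 and a mean of -2.52 over replicates 2 to 4. Among the helicases it was *Ddx10* (0.853), *Ddx18* (0.835) and *Ddx55* (0.921) in *L3mbtl2*-KD ESCs, and *Ddx27* (0.850) and *Ddx56* (0.932) in control ESCs. Among the other RNA-binding proteins it was *Rbmxl2* (0.850) and *Zar1* (0.904) in *L3mbtl2*-KD ESCs. Among the markers it was *Pou5f1* (0.909) and *Dab2* (0.903) in *L3mbtl2*-KD ESCs, and *Nanog* (0.894), *Tagln* (0.860), *Sox17* (0.865) and *Cldn11* (0.852) in control ESCs. The number is near that of chance, and no cause was tested.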

How the results depend on the processing

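All 6 tested panel genes kept their direction under every alternative run. Leaving out single arrays gave log2 fold changes between 2.79 and 2.87 for *Ddx4*, 1.36 and 1.77 for *Dazl*, 2.40 and 2.55 for *Boll*, 1.20 and 1.43 for *Adad1*, 0.44 and 0.88 for *D1Pas1*, and 0.29 and 0.42 for *Ddx25*, and the same 4 genes were called each time. For *Adad1* these fitted values rest on control signals below background and do not show how stable its change is. Normexp background correction gave 0.49 for *Adad1*, which was then not called, and the whole array then had 194 genes up and 159 down. Up-regulated genes made up 55.0% of the genes called with it and 43.7% without. Quantile normalization also turned this balance, with 398 genes up and 355 down (52.9% up), and the cause was not tested. With probes above background on all arrays, *Adad1* was not tested and 3 panel genes were up-regulated. The whole array then had 249 genes up and 290 down, as fewer genes were tested. A threshold of 1.5-fold, being lower, gave 700 genes up and 1014 down. Within the first slide *Ddx4* (2.82), *Dazl* (1.45), *Boll* (2.31) and *Adad1* (1.05) had a limma adjusted p over 0.05, and limma called 0 genes in either direction (319 up and 373 down past 2-fold at an unadjusted p under 0.05). Within the second slide, with as many samples, it called 342 up and 406 down and all 4 panel genes, and the cause was not tested. Without single arrays the counts ranged from 298 to 371 genes up and from 357 to 500 down.

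The replicate block gave 358 genes up and 469 down, and the same 4 panel genes were called. Under this pairing limma gave adjusted p = 0.021 for *D1Pas1* (0.61) and 0.025 for *Ddx25* (0.34), both under 2-fold. Over the alternatives the limma adjusted p of *Ddx25* ranged from 0.025 to 0.33 and that of *D1Pas1* from 0.021 to 0.77. Outside the panel, *Adad2* ranged from -0.05 to 0.16 with single arrays left out, changing sign without 2 of them (-0.054 and -0.037). For *Adad2*, the differences between samples with the same replicate number were 0.05, 0.04, 0.06 and 0.06 (adjusted p = 0.33 in limma with the replicate block). *Ddx19a* had a negative value by its other probe (-0.17), which ranged from -0.27 to 0.06 with single arrays left out. The *Rbm44* call was lost in 7 of 21 alternatives: under 2-fold with normexp (-0.84), with quantile normalization (-0.97) and without control replicate 1 (-0.87), control replicate 3 (-0.98) or *L3mbtl2*-KD replicate 4 (-0.90), and at a limma adjusted p of 0.18 and 0.062 within the first and second slide. Signal over background limits *Nanos2* and *Adad1*.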
